A study of Mus musculus with 2 samples.

Results

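A set of 30 genes of the neuronal synapse and cytoskeleton was followed in neurons and in the glial, vascular and immune cells of the mouse hippocampus, as raw counts of unique molecular identifiers (UMIs, 1 per captured RNA molecule). The members were selected on their UMIs in non-neuronal cells of these same libraries, so their presence there is a description and nothing below is a test of it. All 30 were among the 24130 genes of the matrices. The study set mice given gold nanoparticles (AuNPs) and an electromagnetic field (EMF) against saline controls, and its title names neurogenesis in the living brain. The EMF_AuNPs library came from male C57BL/6 mice of 6 months, with AuNPs injected into the hippocampus and 3 weeks between Helmholtz coils. The Control library came from male C57BL/6 mice of the same age that were given saline. Both sample titles speak of an aged brain. Whether Control mice also spent time between the coils cannot be read from the labels. How many animals each library pooled is not given in the sources used here. Both hippocampi were dissociated with papain into single cells and captured in 10x droplets.

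Neurons release transmitter when vesicles fuse through the SNARE proteins of Snap25, Stx1a and Vamp2, with the synaptotagmin of Syt1 as the calcium sensor. On the receiving side, scaffold proteins such as those of Dlg4, Shank1 and Homer1 hold the receptors, and calmodulin, the kinase CaMKII and the phosphatase calcineurin read the calcium signal. Neurons of adult tissue break easily during dissociation, and RNA set free from broken cells is captured at a low level in droplets that hold other cells. RNA from 1 such pool keeps its genes in 1 ratio in every cell type, whereas a gene that a cell type makes itself stands above that ratio.

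The libraries held 7003 barcodes in EMF_AuNPs and 21583 in Control, with 19544686 and 51091452 UMIs and medians of 2310 and 1904 UMIs per barcode, and they shared 38 barcodes. After filters and removal of doublet calls, 6727 EMF_AuNPs and 19576 Control cells were analysed. Neurons were gated as cells with a UMI in at least 5 of 20 neuronal marker genes, none of them a member, outside the clusters named as another cell type, which gave 140 EMF_AuNPs and 513 Control cells. Another 23 and 79 cells passed the gate inside such clusters and were left out of both sides. Clusters were named from marker genes and are therefore called "like", and 11 classes had at least 50 cells in each library. Cells below the gate in unnamed clusters were 19.6% of EMF_AuNPs and 9.29% of Control cells. A class level is given in CPM, the UMIs of a gene per 1000000 UMIs of the class. Each group is a single library, so differences between them lack a replicate check and no test was run. Intervals in brackets are 95% intervals of counting error only. A ratio of at least 1.5-fold, with 1 CPM added to both sides, is written as higher or lower, while its interval has nothing added. All values describe these 2 libraries and not the treatments.

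Promoter sequences are shown for members that the results below turn on, Syn1 and Sst among those that stood over 2-fold above the ratio of the whole library in none of the named classes in both libraries, and Map1a, Uchl1 and Npy among those that stood above it in 1 class. Each runs from 250 bases before to 50 bases after the start site, 5′ to 3′ on the strand of the gene, from RefSeq on GRCm38.p6, which covered 21 of the 30 members with 28 promoters. The repressor REST is known to silence neuronal genes in other cell types through the RE1 element, and CREB binds the cyclic AMP response element (CRE). The letters searched on both strands were TTCAGCACC for the left and GGACAGC for the right RE1 half-site, TGACGTCA for the CRE, its half-site TGACG, and TATAAA for the TATA box. The half-site TGACG lies within the CRE. Capitals mark a left RE1 half-site or a CRE.
Syn1 (chrX:20920869-20921168, minus strand): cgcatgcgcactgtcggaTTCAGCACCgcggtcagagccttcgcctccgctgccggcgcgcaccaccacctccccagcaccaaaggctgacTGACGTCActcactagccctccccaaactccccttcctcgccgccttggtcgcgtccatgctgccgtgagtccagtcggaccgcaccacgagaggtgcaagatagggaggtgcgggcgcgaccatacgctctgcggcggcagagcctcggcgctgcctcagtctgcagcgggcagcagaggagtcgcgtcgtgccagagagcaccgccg
Sst (chr16:23890795-23891094, minus strand): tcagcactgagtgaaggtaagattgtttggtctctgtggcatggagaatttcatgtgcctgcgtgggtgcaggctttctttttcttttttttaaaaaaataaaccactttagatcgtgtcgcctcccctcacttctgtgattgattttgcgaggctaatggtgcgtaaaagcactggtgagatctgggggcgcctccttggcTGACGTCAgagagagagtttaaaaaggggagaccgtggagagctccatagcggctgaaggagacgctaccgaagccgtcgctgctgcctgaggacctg
Map1a (chr2:121289352-121289651, plus strand): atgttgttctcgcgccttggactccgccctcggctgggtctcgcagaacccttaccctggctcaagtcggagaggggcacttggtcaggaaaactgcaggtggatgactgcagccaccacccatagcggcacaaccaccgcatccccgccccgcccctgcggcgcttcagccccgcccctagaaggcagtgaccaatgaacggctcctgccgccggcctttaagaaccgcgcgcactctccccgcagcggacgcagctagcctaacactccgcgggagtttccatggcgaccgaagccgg
Uchl1 (chr5:66675871-66676170, plus strand): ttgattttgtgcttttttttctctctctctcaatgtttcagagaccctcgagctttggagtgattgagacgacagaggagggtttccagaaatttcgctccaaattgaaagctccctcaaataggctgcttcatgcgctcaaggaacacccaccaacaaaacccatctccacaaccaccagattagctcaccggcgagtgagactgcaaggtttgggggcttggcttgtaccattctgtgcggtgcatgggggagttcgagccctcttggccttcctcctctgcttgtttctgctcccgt
Npy (chr6:49822460-49822759, plus strand): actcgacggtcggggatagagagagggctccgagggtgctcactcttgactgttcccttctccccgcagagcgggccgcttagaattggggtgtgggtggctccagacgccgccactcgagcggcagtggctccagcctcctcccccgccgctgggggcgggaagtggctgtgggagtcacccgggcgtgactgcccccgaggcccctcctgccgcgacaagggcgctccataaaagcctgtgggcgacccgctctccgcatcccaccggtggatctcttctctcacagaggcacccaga

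The left RE1 half-site stood in 2 of the 28 member promoters, those of Syn1 and Nlgn1, against 0.371% of all 32851 promoters of that length. In Syn1, the gene of the vesicle protein synapsin 1, it began 232 bases before the start site, and a CRE began 159 bases before it. In Sst, the gene of the peptide somatostatin, a CRE began 48 bases before the start site, and 1.79% of all promoters hold a CRE. The right RE1 half-site was found in 1 of the 28 member promoters, that of Map2 (6.56% of all promoters). The CRE half-site was found in 8 of the 28, each of another member (20.8%), and TATAAA in 0 of the 28 (13.6%). A match is a run of letters and not a shown binding site, and the windows of Map1a, Uchl1 and Npy held none of these letters.

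Most UMIs of most members lay outside the gated neurons. The members summed to 36004 UMIs in EMF_AuNPs (0.184% of the library) and 127824 in Control (0.25%). Gated neurons were 2.08% of EMF_AuNPs and 2.62% of Control cells, and held 5.02% and 16.9% of the members' UMIs in the analysed cells. Oligodendrocyte-like cells, which make myelin, held 24.9% and 34.3%, astrocyte-like cells 15.0% and 7.61%, endothelial-like cells 13.1% and 8.87%, and microglia-like cells 6.83% and 10.7%. In the same order these classes were 15.2% and 29.8%, 13.9% and 12.9%, 17.6% and 15.2%, and 10.2% and 16.1% of the analysed cells. The share of a single member that lay in gated neurons ranged from 1.08% for Calm3 to 33.0% for Syt1 in EMF_AuNPs, and from 3.4% for Map1a to 55.2% for Npas4 in Control. Npas4, an activity-induced transcription factor gene, had 18 EMF_AuNPs and 34 Control UMIs in all, the fewest of the members after Shank1 in EMF_AuNPs. In the named non-neuronal classes the 6 members with the most UMIs were the calmodulin genes Calm2 and Calm3, the microtubule protein gene Map1a, the calcineurin gene Ppp3ca, Vamp2, and the postsynaptic calmodulin-binding gene Nrgn. Without the 3 calcium genes Calm2, Calm3 and Ppp3ca, gated neurons held 8.15% of EMF_AuNPs and 22.2% of Control member UMIs. Oligodendrocyte-like cells then held 27.0% and 34.8%. Of all 8414 and 38768 member UMIs in oligodendrocyte-like cells, 2199 and 11870 were of Map1a.

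Within a class, each member's CPM was divided by its CPM in the whole library, and this quotient was set against the median quotient of the members with at least 10 UMIs there. Of those in microglia-like cells, 17 of 24 in EMF_AuNPs and 24 of 29 in Control lay within 1.5-fold of the class median, and of those in endothelial-like cells 18 of 27 and 23 of 28. The counts were 13 of 25 and 22 of 29 in oligodendrocyte-like cells, and 13 of 26 and 20 of 29 in astrocyte-like cells. In red blood cell-like cells, which in mammals lose their nucleus, they were 8 of 14 and 6 of 8. In ependymal-like cells 7 of 13 members lay within 1.5-fold in EMF_AuNPs and 4 of 18 in Control. In gated neurons the median member stood 5.61-fold above its whole-library level in EMF_AuNPs and 8.24-fold in Control, with Syt1 at 25.7-fold and 20.9-fold and the kinase gene Camk2b at 20.4-fold and 16.9-fold. Over the members, log10 CPM in microglia-like cells and in the whole library had a Pearson r of 0.927 in EMF_AuNPs and 0.972 in Control. Against the gated neurons of the same library it was 0.611 and 0.829. These are descriptions over 24 and 29 genes of 1 library each, and the class's own UMIs are part of the whole library.

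**Figure D1:**
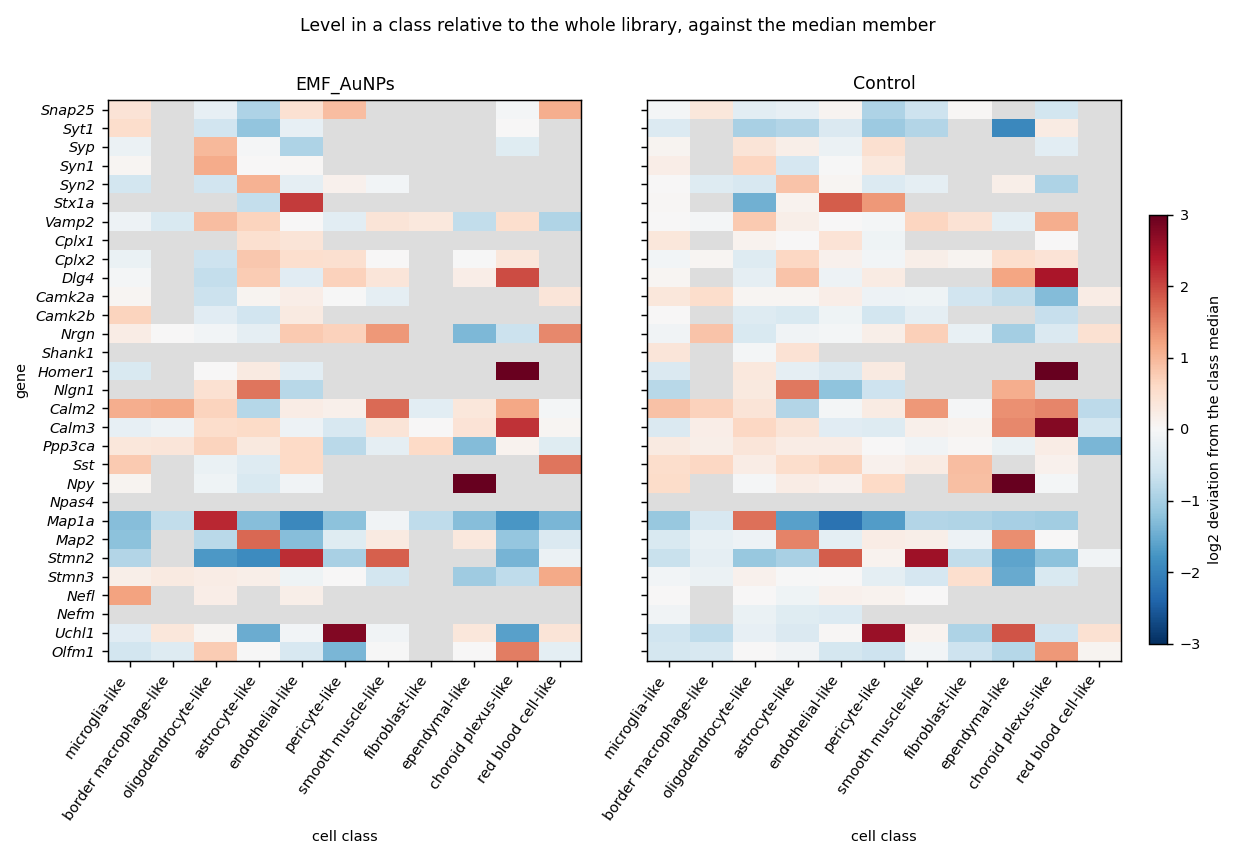
Level of each member in a class relative to the whole library, as the log2 deviation from the median member of that class (colour, cut at 3 on either side), with EMF_AuNPs on the left and Control on the right. Rows are members, columns are classes, and grey cells had under 10 UMIs. Map1a in oligodendrocyte-like, Stmn2 and Stx1a in endothelial-like, Uchl1 in pericyte-like and Npy in ependymal-like cells are red in both libraries. Homer1 and Calm3 in choroid plexus-like and Stmn2 in smooth muscle-like cells are so too.

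Members named here and in the next paragraph stood over 2-fold above a class median in both libraries, from at least 30 UMIs in each. Map1a stood highest in oligodendrocyte-like cells, with 620 CPM from 2199 UMIs in EMF_AuNPs and 847 CPM from 11870 UMIs in Control. These were 3.71-fold and 2.44-fold above its whole-library level. In endothelial-like cells this was so of Stmn2, a gene of the stathmins that bind tubulin, with 197 CPM in EMF_AuNPs and 202 CPM in Control. It was also so of the SNARE gene Stx1a there, with 22.9 and 18.1 CPM. Stmn2 also stood above the median in smooth muscle-like cells, with 159 CPM in EMF_AuNPs and 297 CPM in Control, as did Calm2 with 1206 and 869 CPM.

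Uchl1, which encodes a deubiquitinating enzyme abundant in neurons, had 479 CPM from 180 UMIs in 96 EMF_AuNPs pericyte-like cells and 337 CPM from 579 UMIs in 367 Control cells. Its quotients were 8.20-fold and 5.01-fold. In astrocyte-like cells the dendritic microtubule protein gene Map2 had 155 CPM in EMF_AuNPs and 110 CPM in Control, and Nlgn1, a gene of the adhesion protein neuroligin 1, had 43.9 and 26.7 CPM. The gene of neuropeptide Y, Npy, had 163 CPM in EMF_AuNPs and 164 CPM in Control ependymal-like cells, from 66 UMIs in 22 cells and 118 UMIs in 42 cells. In this class the 8 interneuron markers summed to 140 CPM (4 of them at 0) and 188 CPM (5 at 0). These markers summed to 26.5 and 22.4 CPM in the whole libraries. Their part in the Npy values was not tested. With the expected number of doublets removed, 0 ependymal-like cells were left. In choroid plexus-like cells, which make cerebrospinal fluid, Homer1, Dlg4, Calm3, Calm2 and the secreted olfactomedin gene Olfm1 stood above the class median. In EMF_AuNPs and Control their quotients were 2.72 and 1.71, 1.35 and 1.04, 1.54 and 1.27, 0.766 and 0.524, and 1.00 and 0.467. Calm2 in both libraries and Olfm1 in Control thus lay below their whole-library levels. The class median was low there, at 0.345-fold of the whole library in EMF_AuNPs and 0.190-fold in Control, and the cells had medians of 11990 and 11437 UMIs.

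With the 12 members that had such a class, Calm2 and Calm3 among them, and Ppp3ca set aside, 17 members remained. These 17, or 16 of them without Vamp2, were summed, a choice made after their values were seen. Of the 17, Vamp2 was the member whose share of the sum differed most between cell types. It was 44.8% (42.1 to 47.5) of the sum in EMF_AuNPs and 28.2% (27.2 to 29.2) in Control oligodendrocyte-like cells, and 6.09% (4.54 to 7.97) and 3.42% (3.08 to 3.79) in gated neurons. Sst was 4.36% in microglia-like cells of EMF_AuNPs and 4.36% in those of Control, and 5.62% (2.73 to 10.1) and 5.83% (2.17 to 12.2) in red blood cell-like cells. In gated neurons Sst was 0.870% (0.350 to 1.78) in EMF_AuNPs and 0.749% (0.591 to 0.937) in Control, below each of those shares. Nrgn was 7.08% (5.41 to 9.08) of the sum in EMF_AuNPs and 28.3% (27.4 to 29.2) in Control gated neurons. In red blood cell-like cells it was 27.0% (20.6 to 34.1) and 31.1% (22.3 to 40.9). In EMF_AuNPs the Nrgn share was thus smaller in gated neurons than in red blood cell-like cells, with intervals that did not touch.

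Whole-library levels gave 15 of the 30 members as lower and 0 as higher in EMF_AuNPs, where 6.63% of all 16123 genes were lower and 9.40% higher. In whole libraries fewer cells of a type and less RNA per cell cannot be told apart. Syt1 was 23.3 CPM in EMF_AuNPs and 80.8 CPM in Control, a log2 ratio of -1.75, the lowest of the members. The neurofilament gene Nefl followed at -1.74, Nrgn at -1.52 and the CaMKII gene Camk2a at -1.39. Nefl lies within the span of Nefm on the other strand, and whether the counting used strand is not given in the sources used here, so their reads may be shared. Calm2 and Calm3 differed by -0.07 and -0.00, Vamp2 by -0.06 and Ppp3ca by -0.19.

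Gated neurons of EMF_AuNPs held fewer UMIs of most members than those of Control. Of the 30 members, 19 were lower and 1 was higher, where 21.2% of the 10755 genes tested in these cells were lower and 26.2% higher. Of the 19, 4 (Cplx1, Shank1, Sst and Nefm) had under 10 UMIs in EMF_AuNPs and passed the filter through Control. Over all tested, the median member had a log2 ratio of -0.84 against 0.09 for all genes. The members' sum was 6970 CPM (6642 to 7309) in EMF_AuNPs and 15733 CPM in Control, a log2 ratio of -1.17 (-1.25 to -1.10). This size depended on which neurons were kept. It was -1.26 in cluster 15, with 100 EMF_AuNPs and 329 Control gated cells, -0.48 in cluster 23, which was named Cajal-Retzius-like, with 37 and 123, and -0.64 when the expected number of doublets was removed, which left 121 and 325 cells.

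Among the genes of vesicle release, 6 of 9 were lower in gated neurons. Cplx2, the gene of complexin 2, which clamps SNARE complexes, had 34 UMIs (139.5 CPM) in EMF_AuNPs and 702 UMIs (578 CPM) in Control, a log2 ratio of -2.04 (-2.59 to -1.55). Syt1 had 146 and 2056 UMIs, a log2 ratio of -1.50 (-1.75 to -1.26), and Snap25 had 51 and 564 UMIs, a ratio of -1.15. Syp, the gene of the vesicle membrane protein synaptophysin, had 308 CPM in EMF_AuNPs and 214 CPM in Control, a log2 ratio of 0.52 (0.13 to 0.90), within 1.5-fold.

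Of the 7 postsynaptic genes 3 were lower and 1 was higher. Nrgn had 57 UMIs in 40 of 140 EMF_AuNPs neurons and 2868 UMIs in 276 of 513 Control neurons, or 234 and 2362 CPM. Its log2 ratio of -3.33 (-3.74 to -2.96) was the lowest of the members in these cells. Camk2a, in the same signalling branch, had 562 CPM in EMF_AuNPs and 669 CPM in Control, a log2 ratio of -0.25 (-0.52 to 0.01). Homer1 was the member that was higher, with 21 UMIs (86.1 CPM) and 51 UMIs (42.0 CPM), a ratio of 1.02 (0.23 to 1.80). Calm2, Ppp3ca and Calm3 were all lower, at -1.07, -1.14 and -0.80, although these genes differed little in the whole libraries. Of the 6 cytoskeletal genes 5 were lower, from Nefl at -2.09 to Stmn2 at -0.79, and Map2 was within 1.5-fold at -0.28.

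The gated neurons of the libraries differed in other ways. The 20 gate markers summed to 20938 CPM in EMF_AuNPs and 17009 CPM in Control. The 7 granule neuron markers summed to 238 and 564 CPM, the 9 excitatory neuron markers to 677 and 828 CPM, and the 8 interneuron markers to 382 and 173 CPM, with 1 interneuron marker at 0 in EMF_AuNPs. The 10 microglia markers summed to 4053 CPM in EMF_AuNPs and 1636 CPM in Control, and the 10 astrocyte markers to 5251 and 3160 CPM, with 0 of either list at 0. Haemoglobin-led red blood cell markers, 5 of 7 listed being in the matrices, summed to 23362 and 2682 CPM, with 1 at 0 in each. The part of these differences in the members' values was not tested.

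**Figure D2:**
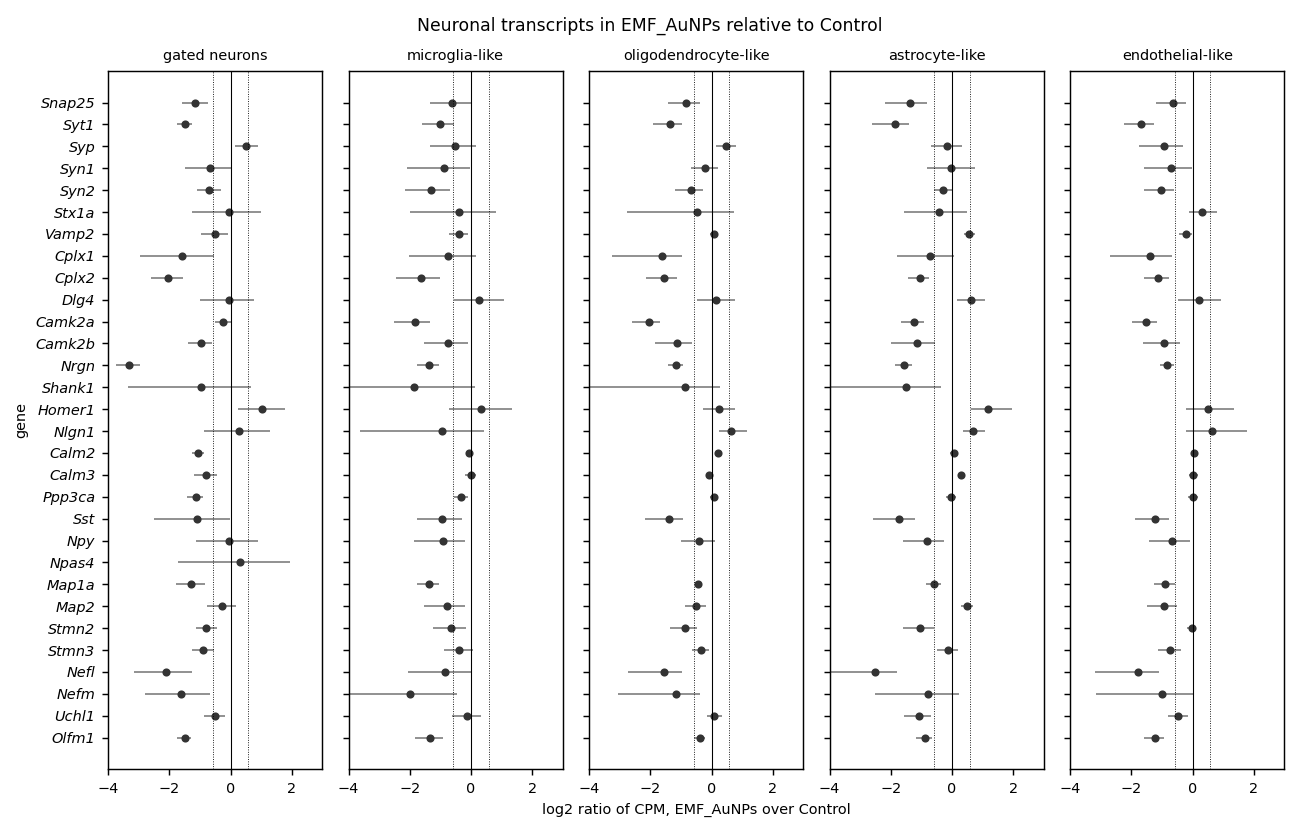
Log2 ratio of CPM, EMF_AuNPs over Control, of each member with at least 10 UMIs over both libraries, in gated neurons and the 4 largest named classes. Points are ratios with 1 CPM added, bars are 95% intervals of counting error and dotted lines mark 1.5-fold. In gated neurons Nrgn lies lowest at -3.33, while Calm2, Calm3 and Ppp3ca lie between -0.33 and 0.29 in the 4 other classes and at -0.80 or below in gated neurons.

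Outside neurons, the members were lower in EMF_AuNPs more often than the genes of the same class. Npas4 fell under 10 UMIs in all 4 of the largest classes, and Shank1 did so in endothelial-like cells. In microglia-like cells, macrophages that live in brain tissue, 19 of the 29 members tested were lower and 0 higher, where 19.6% of all genes were lower and 9.51% higher. Of the 19, 4 passed the filter of 10 UMIs over both libraries through Control, where they are high, and had fewer in EMF_AuNPs (Cplx1, Nlgn1, Nefm, and Shank1 with 0 UMIs in EMF_AuNPs and 15 in Control). Members of that kind were 3 of the lower ones in oligodendrocyte-like, 3 in astrocyte-like and 1 in endothelial-like cells. In endothelial-like cells 18 of 28 were lower and 1 higher, where 9.69% of genes were lower and 12.8% higher. In astrocyte-like cells 16 of 29 were lower and 3 higher (10.9% and 19.3% of genes), and in oligodendrocyte-like cells 13 of 29 were lower and 1 higher (10.5% and 9.22%). The median of all genes in astrocyte-like cells was 0.16, and relative to it 1 member, Homer1, was higher. In microglia-like cells the count of lower members was 9 with 10 CPM added and 10 at a clustering resolution of 2, and in endothelial-like cells it was 11 with 10 CPM added.

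Camk2a was lower in all 4 of these classes. It had 18.6 CPM in EMF_AuNPs and 69.5 CPM in Control microglia-like cells, a log2 ratio of -1.85 (-2.52 to -1.34). The values were 12.4 and 54.4 CPM in oligodendrocyte-like, 24.0 and 58.4 CPM in astrocyte-like and 19.6 and 58.5 CPM in endothelial-like cells, with ratios of -2.05, -1.25 and -1.53. Its ratio in the gated neurons, -0.25, was nearer to 0 than any of these. For Nrgn the lowest ratio was that of the gated neurons, with -3.33 there and -1.37, -1.15, -1.56 and -0.83 in microglia-, oligodendrocyte-, astrocyte- and endothelial-like cells. Syt1 had ratios of -1.02, -1.34, -1.87 and -1.68 in the same 4 classes, near its -1.50 in gated neurons. Whether these ratios differ between classes was not tested.

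The calcium genes kept close to the same level in these glial and endothelial cells. Calm2 had 758 CPM in EMF_AuNPs and 797 CPM in Control microglia-like cells, and 399.5 and 387 CPM in endothelial-like cells. The ratios of Calm2, Calm3 and Ppp3ca in the 4 classes lay between -0.33, for Ppp3ca in microglia-like cells, and 0.29, for Calm3 in astrocyte-like cells. Vamp2 had 165 CPM in EMF_AuNPs and 112 CPM in Control astrocyte-like cells, a log2 ratio of 0.56 (0.38 to 0.74), and -0.41 in microglia-like, 0.07 in oligodendrocyte-like and -0.23 in endothelial-like cells. Map1a was lower in microglia-like (49.6 and 129 CPM), astrocyte-like (62.2 and 94.3 CPM) and endothelial-like cells (30.3 and 56.9 CPM), and within 1.5-fold in oligodendrocyte-like cells, at -0.45 (-0.52 to -0.38). In astrocyte-like cells Homer1 had 17.3 and 7.17 CPM, a ratio of 1.16 (0.61 to 1.95), Nlgn1 0.70 (0.35 to 1.08) and Dlg4 0.60 (0.17 to 1.09).

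The 6 members with the most UMIs outside neurons differed in how evenly they lay over the 11 classes. Calm2 was lowest in red blood cell-like cells, at 194 CPM in EMF_AuNPs and 143 CPM in Control, and highest in smooth muscle-like cells of EMF_AuNPs (1206 CPM) and ependymal-like cells of Control (985 CPM). It was within 1.5-fold between libraries in each of the 11. Calm3 was highest in ependymal-like cells, with 618 and 632 CPM, and lower in EMF_AuNPs in border macrophage-like cells alone, with 176 and 271 CPM. Ppp3ca was highest in oligodendrocyte-like cells, with 195 and 185 CPM, and higher in EMF_AuNPs in red blood cell-like cells alone, from 39 and 10 UMIs. Nrgn was lower in EMF_AuNPs in 10 of the 11 classes, from -2.62 (-3.61 to -1.81) in border macrophage-like cells to -0.75 in red blood cell-like cells, and was -0.50 (-1.02 to -0.03) in pericyte-like cells. Map1a was lower in 6, with a lowest ratio of -1.55 in border macrophage-like cells. Vamp2 was lower in border macrophage-like cells alone, with 19 and 40 UMIs.

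The sum over all 30 members gave small ratios whose sign depended on the scaling in oligodendrocyte-, astrocyte- and endothelial-like cells. In CPM the log2 ratio of the sum was -0.43 in microglia-, -0.22 in oligodendrocyte-, -0.14 in astrocyte- and -0.31 in endothelial-like cells, but as UMIs per cell it was -0.18, 0.31, 0.68 and 0.16. Median depths were higher in EMF_AuNPs, at 2036 against 1591 UMIs in microglia-like, 3370 against 2282 in oligodendrocyte-like, 3110 against 1578 in astrocyte-like and 2213 against 1546 in endothelial-like cells. Without the 3 calcium genes the CPM ratios were -0.97, -0.46, -0.39 and -0.63. The libraries also filled different clusters of a class. Of 936 EMF_AuNPs astrocyte-like cells 911 lay in cluster 6, and of 2532 Control cells 2512 lay in cluster 3. In cluster 6 the sum without calcium genes was 836 CPM (804 to 870) in EMF_AuNPs and 764 CPM (557 to 1022) in the 20 Control cells. Microglia-like cells lay mostly in cluster 7 in EMF_AuNPs (648 cells) and in cluster 2 in Control (2741 cells), and in cluster 7 the sum was 478 and 757 CPM. Oligodendrocyte-like cells lay mostly in cluster 5 in EMF_AuNPs (966 cells) and in cluster 0 in Control (5188 cells), and in cluster 5 the sum was 1209 and 1344 CPM. In endothelial cluster 1, with 1034 and 2370 cells, it was 679 and 997 CPM.

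In the 7 smaller classes fewer members passed the filter on low values and many calls rest on few UMIs, so the counts are descriptions. Lower members with under 10 UMIs in EMF_AuNPs were 8 in border macrophage-like, 9 in fibroblast-like, 6 in pericyte-like and 4 in smooth muscle-like cells. They were 2 in red blood cell-like, 3 in choroid plexus-like and 3 in ependymal-like cells. In border macrophage-like cells 13 of 21 members were lower and 1 higher (23.9% and 17.2% of genes), and in fibroblast-like cells 10 of 18 and 0 (24.5% and 20.7%). In pericyte-like cells 9 of 27 were lower and 2 higher (22.6% and 23.5%), and in smooth muscle-like cells 9 of 24 and 2 (15.9% and 17.4%). In ependymal-like cells 6 of 20 were lower and 2 higher (13.1% and 24.6%). Choroid plexus-like cells had 6 of 24 lower and 3 higher (5.88% and 30.9%). Red blood cell-like cells had 6 of 19 lower and 3 higher (12.4% and 40.3%). The median of all genes was 0.33 in the choroid plexus-like and 0.33 in the red blood cell-like cells, and relative to it 10 members were lower in each, while 2 were higher in the choroid plexus-like and 1 in the red blood cell-like cells. It was 0.14 in ependymal-like cells, where 7 were then lower and 1 higher.

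The sum of the 16 members, without those that had such a class, Ppp3ca and Vamp2, was smaller in EMF_AuNPs in each of the 11 classes, as CPM and as UMIs per cell. With Vamp2 included this did not hold per cell. Astrocyte-like cells then held 1.36 UMIs per cell in EMF_AuNPs and 1.16 in Control, a log2 ratio of 0.23 (0.14 to 0.33), and oligodendrocyte-like cells 1.29 and 1.35, a ratio of -0.068 (-0.15 to 0.017). Whole-library levels were 273 CPM (266 to 281) in EMF_AuNPs and 619 CPM (612 to 626) in Control, a log2 ratio of -1.18 (-1.22 to -1.14). Gated neurons held 5.40 UMIs per cell (5.02 to 5.80) of these 16 in EMF_AuNPs and 19.1 (18.7 to 19.5) in Control. Microglia-like cells held 0.480 (0.430 to 0.535) and 0.901 (0.868 to 0.934), and endothelial-like cells 0.577 and 0.894. Oligodendrocyte-like cells held 0.714 and 0.973, astrocyte-like cells 0.830 and 0.954, and red blood cell-like cells 0.404 (0.343 to 0.471) and 0.716 (0.580 to 0.875). Over the 11 named classes the UMIs per cell lay between 0.404 and 0.830 in EMF_AuNPs and between 0.716 and 1.26 in Control.

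In CPM the log2 ratio of this sum was -1.15 (-1.32 to -0.99) in microglia-like, -0.98 in oligodendrocyte-like, -1.02 in astrocyte-like, -1.10 in endothelial-like, -1.48 in border macrophage-like, -0.91 in smooth muscle-like and -1.34 in fibroblast-like cells. The 7 ratios stand beside the -1.18 of the whole library and the -1.38 of the gated neurons. The ratios nearest to 0 were -0.32 in pericyte-like, -0.62 in red blood cell-like, -0.58 in choroid plexus-like and -0.55 in ependymal-like cells. In pericyte-like cells the EMF_AuNPs library lay in cluster 10 (228 of 229 cells), while 321 of 787 Control cells lay in cluster 12. In cluster 10 the 27 members without calcium genes summed to 1234 CPM (1123 to 1352) and 1842 CPM (1734 to 1955), against 1228 and 1240 CPM in all pericyte-like cells. The 10 endothelial markers summed to 868 CPM in EMF_AuNPs and 10593 CPM in Control pericyte-like cells, with 0 of them at 0, beside 26352 and 12438 CPM for the 7 pericyte markers. Their part in the pericyte-like values was not tested.

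**Figure D3:**
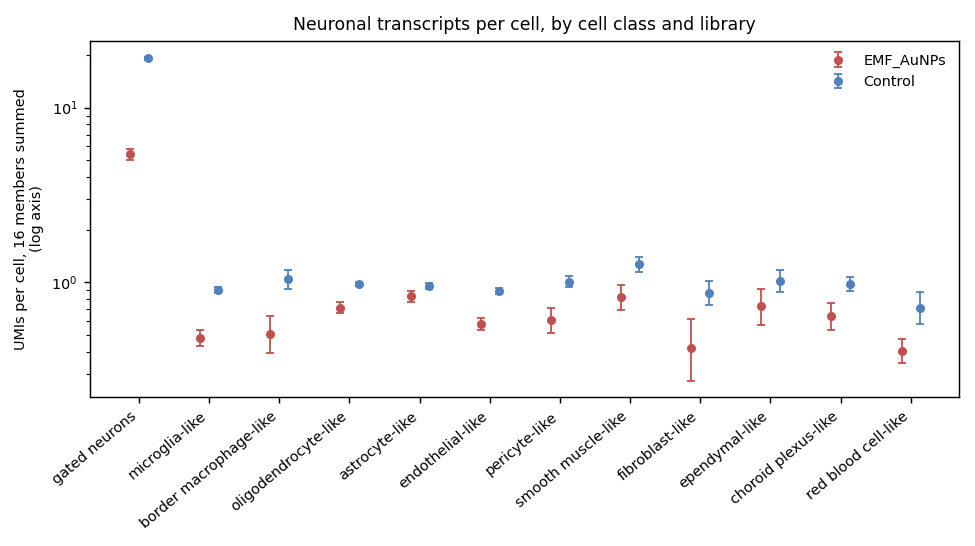
UMIs per cell (log axis) of the 16 members summed, by cell class, with EMF_AuNPs in red and Control in blue. Bars are 95% intervals of counting error. Gated neurons had 5.40 and 19.1 UMIs per cell, and all 11 named classes lay near or below 1, with EMF_AuNPs lower in each.

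Cells of like depth also differed between libraries in these 16 members. Microglia-like cells with 1000 to under 2000 UMIs held 0.498 per cell (0.408 to 0.601) in EMF_AuNPs and 0.869 (0.831 to 0.909) in Control. Those with 2000 to under 4000 UMIs held 0.498 and 1.07. Endothelial-like cells of the same depths held 0.459 and 0.879, then 0.634 and 1.01. Astrocyte-like cells held 0.525 and 0.866, then 0.780 and 1.17, a wider gap between libraries at each depth than over all astrocyte-like cells. Gated neurons held 4.90 and 8.84 with 1000 to under 2000 UMIs and 8.96 and 15.3 with 2000 to under 4000. In Control, 78 gated neurons with 4000 UMIs or more held 5442 of the 9794 UMIs, at 69.8 per cell, and under 20 EMF_AuNPs neurons were that deep. Of 30 pairs of a named class and a depth range with at least 20 cells in each library, EMF_AuNPs was lower in 29, with intervals that did not touch in 21. The exception was choroid plexus-like cells with 2000 to under 4000 UMIs, at 0.643 and 0.556. The pairs are parts of the same libraries and not separate checks, and no like sum of other genes stands beside them. These 16 members were chosen after their values were seen, and their sum with Vamp2 alone added was not split by depth. A sum of all members but the calcium genes, which holds Vamp2, was also split. It was lower in EMF_AuNPs at each depth compared, except in choroid plexus-like cells with 8000 UMIs or more. There it was 4.50 (4.11 to 4.92) and 3.90 (3.69 to 4.11). With 2000 to under 4000 UMIs astrocyte-like cells held 2.48 (2.35 to 2.62) and 2.59 (2.47 to 2.71). Ependymal-like cells of that depth held 2.96 and 3.04.

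**Figure D4:**
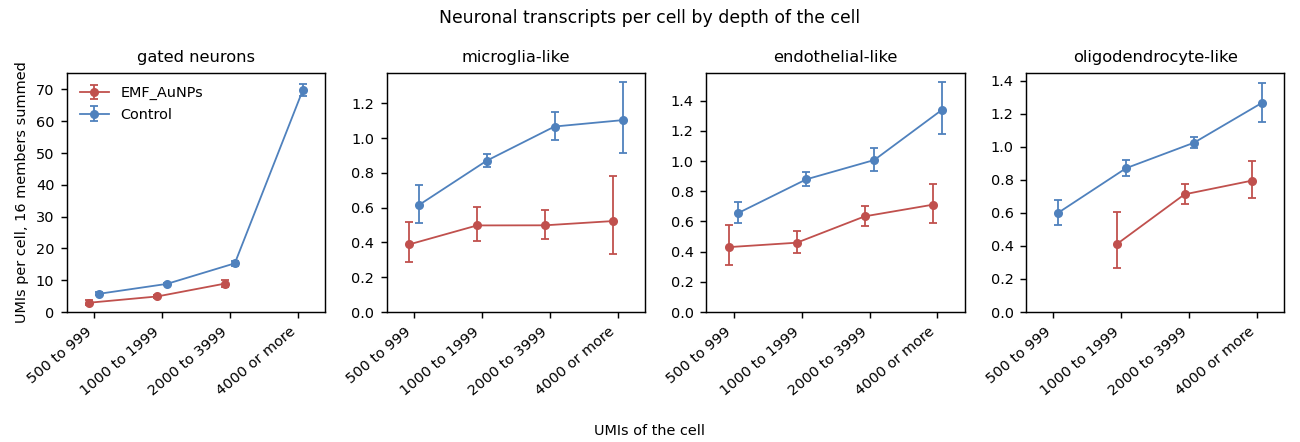
UMIs per cell of the 16 members summed, against the depth of the cell in UMIs, in 4 kinds of cell, with EMF_AuNPs in red and Control in blue and a scale of its own in each panel. Bars are 95% intervals of counting error, and ranges with under 20 cells are left out. EMF_AuNPs lies below Control at each depth shown for both.

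In the hippocampus Sst and Npy are known as interneuron genes, but here most UMIs of both lay in named non-neuronal classes. Sst had 7 UMIs in 4 EMF_AuNPs gated neurons and 76 UMIs in 36 Control gated neurons, of 193 and 1019 Sst UMIs in the analysed cells. Of all of them, 67.9% in EMF_AuNPs and 81.6% in Control lay in named non-neuronal classes. Those classes leave out the unnamed cells below the gate, which were 19.6% of EMF_AuNPs and 9.29% of Control cells. Sst was lower in microglia-like (13.1 and 26.2 CPM), oligodendrocyte-like (7.05 and 20.1 CPM), astrocyte-like (7.32 and 26.7 CPM) and endothelial-like cells (10.9 and 27.1 CPM). The 62 EMF_AuNPs fibroblast-like cells held 0 Sst UMIs and the 182 Control cells held 13. Npy had 11 and 57 UMIs in gated neurons, 45.1 and 46.9 CPM, a log2 ratio of -0.06 (-1.14 to 0.89). It was lower in microglia-like (10.3 and 20.6 CPM), astrocyte-like (8.98 and 16.7 CPM) and endothelial-like cells (8.69 and 14.4 CPM), and -0.01 (-0.47 to 0.43) in ependymal-like cells, where it stood above the library's ratio.

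A further 40 synaptic and neuronal genes were listed beside the members, with 5 of the gate markers among them. In the whole library 19 of 40 were lower and 0 higher (6.63% and 9.40% of all genes). In gated neurons 20 of 39 were lower and 1 higher (21.2% and 26.2%). In microglia-like cells 21 of 34 were lower and 1 higher (19.6% and 9.51%), and in oligodendrocyte-like cells 18 of 37 and 1 (10.5% and 9.22%). In astrocyte-like cells 19 of 35 were lower and 0 higher (10.9% and 19.3%), and in endothelial-like cells 14 of 35 and 0 (9.69% and 12.8%). How many of these lower calls rest on under 10 UMIs in EMF_AuNPs was not counted. The median log2 ratios of these further genes in the 4 named classes were -0.78, -0.50, -0.60 and -0.43, beside -0.79, -0.46, -0.73 and -0.78 for the members. Among those with the most UMIs were Mapt, the gene of tau, at 413 CPM in EMF_AuNPs and 687 CPM in Control, Basp1 at 197 and 255 CPM, the glutamate receptor gene Gria2 at 220 and 195 CPM and the microtubule protein gene Map1b at 101 and 165 CPM. In oligodendrocyte-like cells Mapt had 1427 CPM in EMF_AuNPs and 1706 CPM in Control, above its whole-library levels.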

How the data were processed

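Per the labels' protocols, papain-dissociated hippocampal cells of 2 samples, 1 per group, were captured by the 10x protocol and sequenced. The authors deposited whole-number UMI counts per gene and barcode, not normalised, and per the submitters' processing notes Cell Ranger 3.0.2, STAR and the build mm10 were used. The sources used here give no annotation, STAR version or strand setting.

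Barcodes under 500 UMIs or 250 genes were dropped, 7 EMF_AuNPs and 158 Control ones. Doublets were simulated in each library, and a cell was called where at least 85% of its nearest neighbours in the mixed data were simulated, which called 3.44% and 6.95% of cells (5.60% and 17.1% expected at 0.8% per 1000 cells). With 13 clusters of over 50% calls, 269 and 1849 cells were removed. This threshold was chosen after the data had been seen, since removing the expected number took out the whole ependymal-like cluster and many neurons; that setting is kept as an alternative. Clusters came from 2000 variable genes without the members, 30 components, 15 neighbours and the Leiden method (leidenalg 0.10.2, igraph 0.11.9) at resolution 1. A cluster took the name of a class with at least 3 markers among the 50 genes that most exceeded their median over clusters (10 CPM added). It stayed unnamed where another class had as many markers among its top 10 genes, or where its median depth was under 0.5 of the library's with no marker among the top 5. These 2 rules were set after the clusters had been seen. Of 6 markers not in the matrices, 2 each belong to T or NK cells, B cells and red blood cells.

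UMIs were summed per library and class. Intervals are exact Poisson, conditional binomial or Clopper-Pearson intervals at 95%. They take UMIs as independent counts and leave out the spread between cells and between animals. UMIs were not treated as replicates of a group, and no test was run. A gene was compared with at least 10 UMIs over both libraries. Named genes were all 30 members, with values by class for the 6 with the most UMIs outside neurons, those over 2-fold above the class median, and Sst and Npy; other members were named after their values were seen. Of the 5 further synaptic genes with the most UMIs, 1 is not reported here. The members and lists were chosen with earlier results of these data known. The sums and intervals were tested on simulated data. Alternatives changed the pseudocount, filters, scaling, centring, resolution, gate, doublet removal, members summed and profile; those by cluster, for the 17 members, for the expected number of doublets and for looser cluster names were added after the data had been seen. The work used Python 3.11.15, numpy 2.4.6, scipy 1.17.1 and pandas 2.3.3.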

Additional observations from a re-analysis of the deposited data

Results flagged for a closer look

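Olfm1, which encodes a secreted olfactomedin of neurons, had ratios of opposite direction in different cell types, and the difference between them was not tested. Its log2 ratio of EMF_AuNPs over Control was 0.70 in ependymal-like cells, from 37 UMIs in 26 EMF_AuNPs cells and 40 UMIs in 34 Control cells. In ependymal-like cells 24.6% of all genes tested were higher, and the median of all was 0.14. The Olfm1 ratio was -1.50 in gated neurons, -1.33 in microglia-like, -1.29 in border macrophage-like, -0.89 in astrocyte-like, -1.23 in endothelial-like, -1.34 in pericyte-like, -0.91 in smooth muscle-like cells and -1.69 in those like red blood cells. Olfm1 and Snap25 were picked for ratios past 1.5-fold in both directions with intervals that excluded 0.

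Snap25, a SNARE gene of vesicle fusion, also had ratios of opposite direction, and this difference was not tested either. Its log2 ratio was 1.35 (0.35 to 2.42) in pericyte-like cells, from 14 UMIs in 14 EMF_AuNPs cells and 24 UMIs in 22 Control cells. In pericyte-like cells 23.5% of all genes tested were higher, and the median of all was 0.05. Of the EMF_AuNPs pericyte-like cells 228 of 229 lay in cluster 10, while 321 of the 787 Control ones lay in cluster 12. Endothelial markers summed to 868 CPM in EMF_AuNPs and 10593 CPM in Control pericyte-like cells. The part of these in the Snap25 and Olfm1 values was not tested. The Snap25 ratio was -1.15 in gated neurons, -0.62 in microglia-like, -0.83 in oligodendrocyte-like, -1.37 in astrocyte-like and -0.65 in endothelial-like cells.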

How the results depend on the processing

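No paired analysis was possible because each group has 1 library. No replicate was left out, for the same reason. Of the alternative values for the sums and counts in gated neurons and the 4 largest classes, 215 stayed within counting error or within 1.5-fold of the value given above and 52 moved. Among these sums only that in gated neurons was past 1.5-fold, and it kept its sign. The sums in oligodendrocyte-, astrocyte- and endothelial-like cells, all within 1.5-fold, changed sign as UMIs per cell. The astrocyte-like sum also did so in cluster 6. For the other classes 288 stayed and 98 moved. The cause of a move was not tested.

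The log2 ratio of the members' sum in gated neurons was -1.62 as UMIs per cell, -1.34 over the 17 members, -1.26 in cluster 15, -0.48 in cluster 23, -1.38 with a gate of 8 markers and -0.64 with the expected number of doublets removed. The count of higher members there was 0 with at least 100 UMIs, 2 in cells with at least 1000 UMIs and 4 with the expected number of doublets removed. As UMIs per cell the ratio was -0.18 in microglia-, 0.31 in oligodendrocyte-, 0.68 in astrocyte- and 0.16 in endothelial-like cells. Without calcium genes it was -0.97, -0.46, -0.39 and -0.63 in these 4 classes, and over the 17 members -1.0, -0.60, -0.59 and -0.92. By cluster it was -0.22 and -0.13 in microglia clusters 2 and 7, -0.12 and -0.033 in oligodendrocyte clusters 20 and 5, 0.30 in astrocyte cluster 6, and -0.26, -0.41 and -0.40 in endothelial clusters 1, 11 and 32. At resolution 2 it was -0.17 in microglia- and -0.24 in astrocyte-like cells, and with looser cluster names -0.21 in astrocyte-like cells.

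The count of lower members with 10 CPM added was 9 in microglia- and 11 in endothelial-like cells, and at resolution 2 it was 10 in microglia-like cells. The count of higher members with 10 CPM added was 0 in oligodendrocyte-, 1 in astrocyte- and 0 in endothelial-like cells. It was 1 in microglia-like cells with no filter, at resolution 2 and with the expected number of doublets removed, 1 in astrocyte-like cells after centring and 0 in endothelial-like cells with at least 100 UMIs. Against the profile of the gated neurons in place of the library, members within 1.5-fold were 8 in EMF_AuNPs and 14 in Control microglia-like cells, 8 in Control oligodendrocyte-like cells, 8 in EMF_AuNPs and 12 in Control astrocyte-like cells, and 9 in EMF_AuNPs and 13 in Control endothelial-like cells. With at least 30 UMIs they were 7 in EMF_AuNPs microglia- and 8 in EMF_AuNPs oligodendrocyte-like cells. When the expected number of doublets was removed, 0 ependymal-like cells were left, so those values have no such alternative. With under 10 UMIs in a class and library, as for Npas4 and Shank1 in most, single ratios have wide intervals that often span 0.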
